A study of Mus musculus with 35 samples.

Results

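The genes C1qtnf3, Egfl6, Pcsk5 and Penk, whose products are secreted, or act on secreted proteins, were followed through rejection and healing of transplanted mouse tracheas. They were chosen from the measured values, as secreted or processing genes with large rises in allografts at day 14 or day 25, and make up 4 of the 12393 genes named on the arrays. Every probe set annotated to exactly 1 of them was used. There were 7, of which 4, 1 per gene, passed a filter on low values (a log2 intensity of at least 5 in at least 5 arrays). These were 1422606_at for C1qtnf3, 1419332_at for Egfl6, 1451406_a_at for Pcsk5 and 1427038_at for Penk. The other 3 probe sets, all of Pcsk5, lay below 5 on every array.

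The study measured RNA from tracheal tissue on 35 Affymetrix arrays in 7 groups of 5. Allografts were heterotopic tracheal grafts taken 4, 14 or 25 days after transplantation into MHC-incompatible recipients, called Allo-4, Allo-14 and Allo-25 here. Isografts were grafts in MHC-compatible recipients at the same days (Iso-4, Iso-14 and Iso-25). Native tracheas were never transplanted. Mouse strain, sex and age, the graft site and any drug treatment are not given in the sources used here, and neither is whether the arrays of a group came from separate animals, so p-values measure the spread between these arrays. All 6 graft groups share the transplantation and a recipient whose cells can enter the graft, and the native group has neither. Values are GCRMA log2 intensities, in which 1 unit is a doubling and values of about 2 to 4 lie near background, where a fold depends on the background model.

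The 4 genes stand at different steps of the secretory route. Pcsk5 encodes a furin-like proprotein convertase, a protease that cuts precursors of growth factors, integrins and other proteins after basic residues as they leave the cell. C1qtnf3 encodes a secreted protein with a collagen-like stretch and a C1q-like globular head, related to the fat hormone adiponectin and known from cartilage and fat. Egfl6 encodes a secreted protein with EGF-like repeats that can bind integrins and is known in the mouse from the basement membrane around hair follicles. Penk encodes proenkephalin, the precursor of the enkephalin opioid peptides. It is best known from neurons and the adrenal medulla, and is also made by mesenchymal cells of developing skeletal tissue.

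The 250 bases before the annotated start are shown for the genes that RefSeq's promoter table for build GRCm38.p6 held, 3 of the 4, as context for genes chosen for late allograft rises. Each reads 5′ to 3′ on the gene's strand and ends at the base before the start. Capitals mark motifs found among 5 searched on both strands: TATAAA (the TATA box), CCAAT (the CCAAT box), GGGCGG (the GC box), TGANTCA (the AP-1 motif) and TTCNNNGAA (the STAT motif). They lie at chr15:10952082-10952331 on the plus strand for C1qtnf3, chrX:166585717-166585966 on the minus strand for Egfl6 and chr19:17837633-17837882 on the minus strand for Pcsk5.
C1qtnf3: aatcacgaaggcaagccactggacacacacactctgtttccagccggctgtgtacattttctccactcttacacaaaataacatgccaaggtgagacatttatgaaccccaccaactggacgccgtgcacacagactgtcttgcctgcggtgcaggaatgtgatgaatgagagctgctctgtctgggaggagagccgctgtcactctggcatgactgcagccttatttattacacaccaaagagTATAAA
Egfl6: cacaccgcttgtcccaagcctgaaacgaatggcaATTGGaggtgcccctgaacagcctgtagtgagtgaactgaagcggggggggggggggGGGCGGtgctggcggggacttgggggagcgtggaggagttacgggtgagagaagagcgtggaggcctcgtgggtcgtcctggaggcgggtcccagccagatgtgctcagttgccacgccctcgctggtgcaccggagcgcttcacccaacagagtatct
Pcsk5: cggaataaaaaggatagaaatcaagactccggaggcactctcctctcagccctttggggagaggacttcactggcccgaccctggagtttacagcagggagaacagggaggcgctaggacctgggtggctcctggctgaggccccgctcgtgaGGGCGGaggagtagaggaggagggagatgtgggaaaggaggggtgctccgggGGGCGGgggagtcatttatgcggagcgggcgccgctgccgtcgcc
The C1qtnf3 window holds the TATA box motif, whose first base lies 6 bases before the annotated start. The Egfl6 window holds GGGCGG at 159 bases and the reverse strand of CCAAT, which reads ATTGG, at 216 bases before the start. The Pcsk5 window holds GGGCGG at 97 and at 45 bases. Among 32851 windows of 250 bases in the same table, 12.4% held TATAAA, 33.8% CCAAT and 32.7% GGGCGG. The letters of TGANTCA and TTCNNNGAA, held by 6.75% and 7.02% of windows, were in none of the 3. No motif was held by all 3 genes. The GC content was 49.2% for C1qtnf3, 64.8% for Egfl6 and 64.0% for Pcsk5, so the C1qtnf3 window is the poorest in G and C.

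The 4 genes followed 4 different courses, and the description as late allograft genes fits them unequally. C1qtnf3 stood above the isografts at both late days. Pcsk5 peaked in Allo-14 and Egfl6 in Allo-25. Penk was far lower in Allo-14 than in Iso-14. Its mean in Allo-25 was high against younger allografts and native trachea, although Allo-25 replicate 5 lay within the native range. Against isografts of the same age it was not clearly high, as the Allo-25 and Iso-25 values overlapped and the means differed by 0.51. Late allograft values, which were used to choose the genes, are described below without a test. In those comparisons limma called 18.4% of 13678 probe sets in Allo-14 against Iso-14 (10% higher and 8.36% lower) and 14.9% in Allo-25 against Iso-25 (6.38% higher and 8.53% lower). The comparisons tested leave Allo-14 and Allo-25 out. They do share isograft and native arrays with the comparisons behind the choice.

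**Figure D1:**
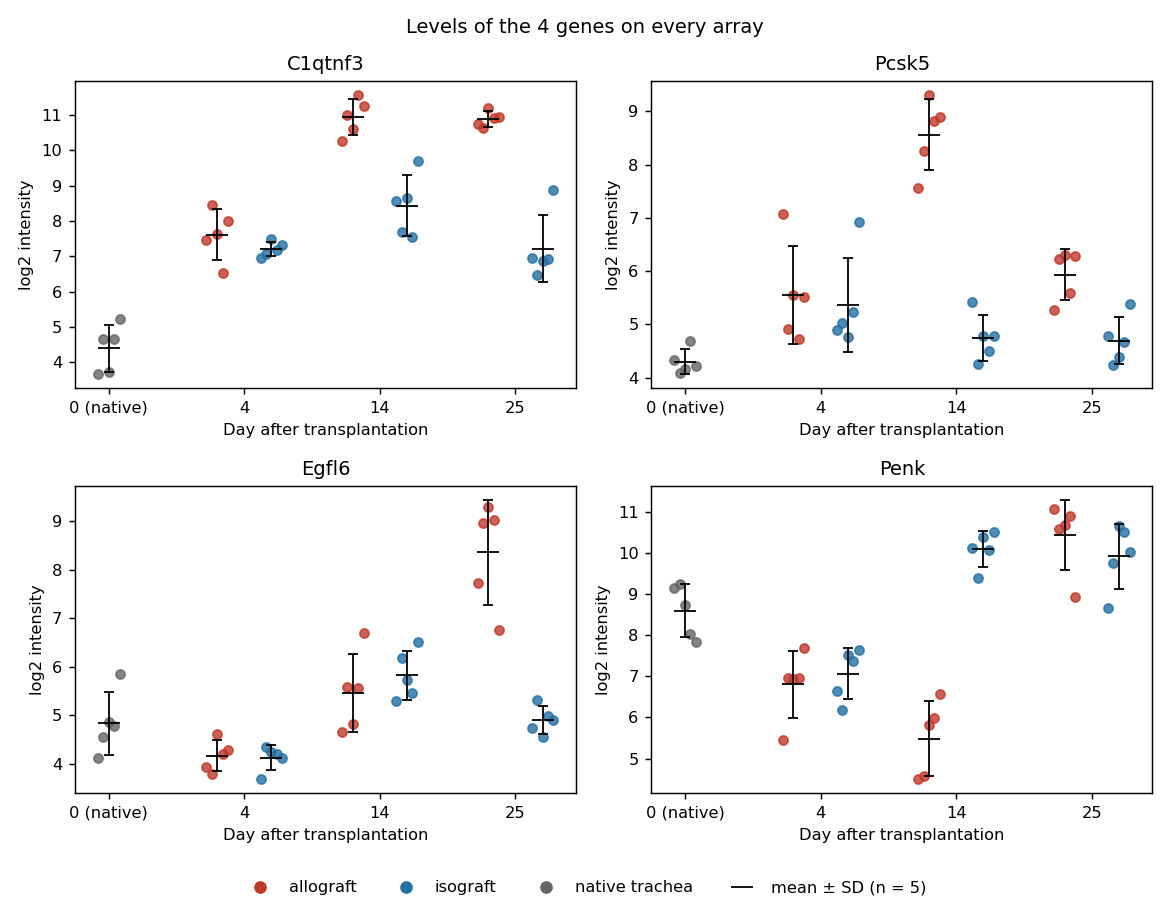
Log2 intensity of C1qtnf3, Pcsk5, Egfl6 and Penk on each of the 35 arrays by day after transplantation, with native trachea at day 0; points are arrays (allografts left of isografts), and bars are the mean ± SD of 5 arrays. C1qtnf3 is highest in the allografts of days 14 and 25, Pcsk5 in those of day 14 and Egfl6 in those of day 25, while Penk is low in day 14 allografts and high in day 14 isografts.

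Native replicate 5 and Iso-25 replicate 5 stood apart from their groups, with a median correlation of 0.894 and 0.854 with their own group. They also held the highest mean level of 13 skin markers in their groups, at 5.87 against 3.32 to 3.54 in the other native arrays and 5.45 against 3.74 to 3.90 in the other Iso-25 arrays. Airway epithelial markers were abundant in native tracheas and isografts and low in late allografts. The mean log2 level of 14 airway epithelial markers was 4.64 to 6.90 in Allo-14 and 3.53 to 3.99 in Allo-25, against 10.07 to 10.86 in Iso-14, 10.17 to 10.85 in Iso-25 and 10.57 to 11.23 in native tracheas. In tissue of mixed cells such as this, fewer cells of a type and less RNA per cell cannot be told apart.

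The convertase gene Pcsk5 peaked in allografts at day 14. Its log2 level in Allo-14 was 7.57, 8.25, 9.31, 8.81 and 8.88, against 5.42, 4.26, 4.78, 4.49 and 4.79 in Iso-14. All 5 allografts lay more than 2 units above the highest isograft. In Allo-25 it was 5.27, 6.23, 6.30, 5.60 and 6.28, against 4.78, 4.24, 4.39, 4.67 and 5.38 in Iso-25. Here 4 of the 5 allografts lay above every isograft and replicate 1 did not, so the groups overlapped. In Allo-4 the levels were 7.08, 4.92, 5.55, 4.74 and 5.52, against 4.90, 5.03, 4.76, 5.23 and 6.91 in Iso-4. Each day 4 group had 1 high array, and the groups overlapped. Native tracheas had the lowest mean, with 4.33, 4.09, 4.16, 4.70 and 4.23.

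In group means, Pcsk5 stood 3.82 above Iso-14 in Allo-14 (14.1-fold, from 8.56 ± 0.67 and 4.75 ± 0.43, SD, n = 5 each), the 15th highest of the 13678 probe sets tested. In Allo-25 it stood 1.25 above Iso-25, and 2.63 below Allo-14. Only 1 of 5 Iso-14 arrays reached 5 for Pcsk5, so the fold and the rank depend in part on the background model. The 3 probe sets that did not pass the filter measured Pcsk5 between 2.38 and 4.66 and differed between Allo-14 and Iso-14 by 0.58, 0.34 and -0.32, with overlapping arrays each time. The large difference therefore rests on 1 probe set of 4. Which transcripts each probe set detects was not tested.

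Away from the late allografts, Pcsk5 was higher at day 4 than in native trachea in both kinds of graft. It rose by 1.26 in Allo-4 (SE 0.38, limma adjusted p = 0.00737) and by 1.06 in Iso-4 (adjusted p = 0.0228), each against native trachea. The Iso-4 rise rests on replicate 5, the array at 6.91: without it the difference was 0.68 and the adjusted p 0.121. In Iso-14 and Iso-25 the differences from native were 0.45 (adjusted p = 0.383) and 0.39 (adjusted p = 0.507). The 95% intervals were -0.32 to 1.22 and -0.39 to 1.16.

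C1qtnf3, the secreted relative of adiponectin, stood high in both late allograft groups. In Allo-14 its log2 level was 10.28, 10.99, 10.61, 11.57 and 11.25, against 8.56, 7.67, 8.64, 7.56 and 9.70 in Iso-14. In Allo-25 it was 10.75, 10.62, 11.19, 10.91 and 10.94, against 6.96, 6.48, 6.85, 6.92 and 8.88 in Iso-25. All late allografts lay above all isografts of their day, and Iso-25 replicate 5, one of the arrays that stood apart, was nearly 2 units above the rest of its group. At day 4 the levels were 7.46, 8.44, 7.63, 6.52 and 8.01 in Allo-4, against 6.95, 7.08, 7.48, 7.18 and 7.33 in Iso-4, and overlapped. Native tracheas had 3.65, 4.67, 3.73, 4.65 and 5.23, below every graft.

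The C1qtnf3 mean was 10.94 ± 0.51 in Allo-14 and 8.43 ± 0.87 in Iso-14 (SD, n = 5 each), a difference of 2.51 (5.70-fold). At day 25 the difference was 3.67 (12.7-fold, 27th highest of the probe sets tested), with 10.88 ± 0.22 in Allo-25 and 7.22 ± 0.95 in Iso-25. Between Allo-25 and Allo-14 it was -0.05, less than the spread between arrays. Without Iso-25 replicate 5 the day 25 difference was 4.08. The isograft mean differed by -1.21 in Iso-25 against Iso-14, which did not pass the test (adjusted p = 0.697, 95% interval -2.01 to -0.41 before adjustment). Without the 2 arrays that stood apart this difference was -1.62 (limma adjusted p = 0.0588), closer to the threshold and also not called.

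C1qtnf3 also rose after transplantation itself, in comparisons without late allografts. It rose by 4.04 in Iso-14 over native trachea (SE 0.39, 16.4-fold, limma adjusted p = 8.25e-09), the 11th highest of the 13678 probe sets. Its native levels lie near background, with 1 of 5 arrays at 5 or above, so the folds and the rank over native depend on the background model. It rose by 2.82 in Iso-4 (7.04-fold, adjusted p = 1.06e-06), by 2.83 in Iso-25 (7.11-fold, adjusted p = 5.12e-06) and by 3.23 in Allo-4 (9.35-fold, adjusted p = 8.09e-08). No graft array overlapped a native array. The rise in Iso-14 over Iso-4, of 1.22, had an adjusted p of 0.0236 and was lost when 1 of 3 arrays was left out: 1.16 (adjusted p = 0.0551) without Iso-4 replicate 1, 1.17 (0.0504) without Iso-14 replicate 3 and 0.91 (0.101) without Iso-14 replicate 5.

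Egfl6, the integrin-binding matrix protein, was highest in Allo-25. Its log2 level in Allo-25 was 7.71, 8.97, 9.30, 9.03 and 6.76, against 4.73, 5.31, 4.55, 4.98 and 4.89 in Iso-25. Every allograft of that day lay above every other array of the series, the lowest of them narrowly above Allo-14 replicate 5. In Allo-14 the levels were 4.65, 5.57, 4.82, 5.57 and 6.69, against 5.29, 6.17, 5.71, 5.45 and 6.51 in Iso-14, and overlapped. In Allo-4 they were 3.93, 3.79, 4.62, 4.21 and 4.29, against 3.68, 4.33, 4.25, 4.20 and 4.12 in Iso-4. Native tracheas had 4.11, 4.55, 4.85, 4.78 and 5.86, the last being the array that stood apart.

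The Egfl6 mean was 8.35 ± 1.08 in Allo-25 and 4.89 ± 0.29 in Iso-25 (SD, n = 5 each), a difference of 3.46 (11-fold, 35th highest of the probe sets tested). It was 2.90 higher in Allo-25 than in Allo-14 (7.44-fold). Only 1 of 5 Iso-25 arrays and 3 of 5 Allo-14 arrays reached 5, so the folds and the rank depend in part on the background model. In Allo-25 against Allo-14, 13 of 15 chondrocyte markers were higher, where 421 of all 13678 probe sets were called in either direction. Their median was 2.92, against 0.01 over all. The mean chondrocyte marker level was 9.46 in Allo-25, 8.56 in Iso-25, 8.78 in Iso-14, 8.83 in native trachea and 6.62 in Allo-14. The Egfl6 means of these groups were 8.35, 4.89, 5.83, 4.83 and 5.46. The part of the chondrocyte markers in the Egfl6 differences was not tested. At day 14 the allograft mean was lower than the isograft mean by 0.37. The skin marker list, given here because Egfl6 is known from hair follicles, had levels of 3.46 to 3.70 in Allo-25 against 3.74 to 5.45 in Iso-25. Of its 13 genes on the arrays, 6 passed the filter. Its gene Krt14 had a mean of 4.24 in Allo-25 and 7.79 in Iso-25, so Krt14 makes up part of the difference in the list level. The highest Krt14 means were 10.49 in Iso-4 and 10.35 in Allo-4. Which cells the Krt14 signal came from was not tested. The skin keratin Krt1 lay near background in all 7 groups, with means of 2.20 to 2.47, and does not tell the groups apart.

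In isografts Egfl6 was highest at day 14. It rose by 1.71 in Iso-14 over Iso-4 (SE 0.38, 3.27-fold, limma adjusted p = 0.0013), with no overlap between the groups. No Iso-4 array reached 5, so this fold depends in part on the background model. Over native trachea the rise in Iso-14 was 1.00 (adjusted p = 0.0466), with overlapping arrays, and it did not hold when any of 7 single arrays was left out (native replicates 1 to 4 and Iso-14 replicates 2, 3 and 5), for which the differences lay between 0.81 and 1.02 and the adjusted p between 0.0637 and 0.141. Without native replicate 5 it was 1.25 (adjusted p = 0.0133). The differences from native were -0.66 in Allo-4 (adjusted p = 0.154), -0.71 in Iso-4 (0.125) and 0.06 in Iso-25 (0.932).

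Penk, the opioid peptide precursor, was low in allografts at day 14. Its log2 level in Allo-14 was 4.50, 4.57, 5.82, 5.97 and 6.57, against 10.13, 9.39, 10.40, 10.06 and 10.51 in Iso-14. In Allo-25 it was 11.06, 10.58, 10.68, 10.90 and 8.94, against 8.66, 9.77, 10.66, 10.50 and 10.02 in Iso-25. The day 14 groups were far apart and the day 25 groups overlapped. At day 4 Penk had 5.45, 6.96, 6.95, 6.95 and 7.70 in Allo-4, against 6.65, 6.17, 7.51, 7.38 and 7.64 in Iso-4. Native tracheas had 9.14, 9.25, 8.73, 8.04 and 7.82, above every Iso-4 array and below every Iso-14 array.

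The Penk mean was 5.49 ± 0.91 in Allo-14 and 10.10 ± 0.43 in Iso-14 (SD, n = 5 each), a difference of -4.61 (24.4-fold lower, 44th lowest of the probe sets tested). In Allo-25 it was 10.43 ± 0.86, against 9.92 ± 0.79 in Iso-25, a difference of 0.51. The difference between Allo-25 and Allo-14, 4.95 (30.8-fold), was the 4th highest of 13678, and belongs to the late allograft values behind the choice of the gene. Only 3 of 5 Allo-14 arrays reached 5 for Penk, so the folds and ranks that involve Allo-14 depend in part on the background model.

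Penk fell at day 4 in both kinds of graft and was high again in later isografts. Against native trachea it fell by 1.53 in Iso-4 (SE 0.45, limma adjusted p = 0.0064), and the difference was -1.79 in Allo-4 (adjusted p = 0.00155). It rose by 3.03 in Iso-14 over Iso-4 (8.16-fold, adjusted p = 8.23e-06). In Iso-14 it also rose above native trachea, by 1.5 (adjusted p = 0.0131), with every isograft above every native array. The rise in Iso-25 over native, 1.32, had overlapping arrays and an adjusted p of 0.0402. It was not called without the 2 arrays that stood apart (1.11, adjusted p = 0.114), nor when any of 7 single arrays was left out (native replicates 3 to 5 and Iso-25 replicates 2 to 5), where it lay between 1.13 and 1.36 with adjusted p from 0.0562 to 0.101.

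Counted together, the 4 genes can be read against the background of all 13678 probe sets. In Allo-4 against Iso-4 none of the 4 was called by limma, where 0.6% of probe sets were, and none had an unadjusted p under 0.05. The differences were 0.41 for C1qtnf3 (95% interval -0.39 to 1.21), 0.05 for Egfl6 (-0.72 to 0.82), 0.19 for Pcsk5 and -0.27 for Penk. In Allo-4 against native trachea 2 were higher and 1 lower, where 44.8% of probe sets were called (22.2% higher and 22.6% lower). In Iso-4 against native trachea 2 were also higher and 1 lower, where 44.3% were called (21.1% higher and 23.2% lower). In Iso-14 against native 3 were higher, where 28.8% were called in either direction and 12.1% higher, and in Iso-25 against native 2 were higher, where 16.1% were called (8.98% higher). In Iso-14 against Iso-4 3 were higher, where 22% were called (9.18% higher). In Iso-25 against Iso-14 none of the 4 was called, as 0% of all probe sets were, and 2, C1qtnf3 and Egfl6, had an unadjusted p under 0.05. The 5 native arrays are shared by all comparisons with native trachea.

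**Figure D2:**
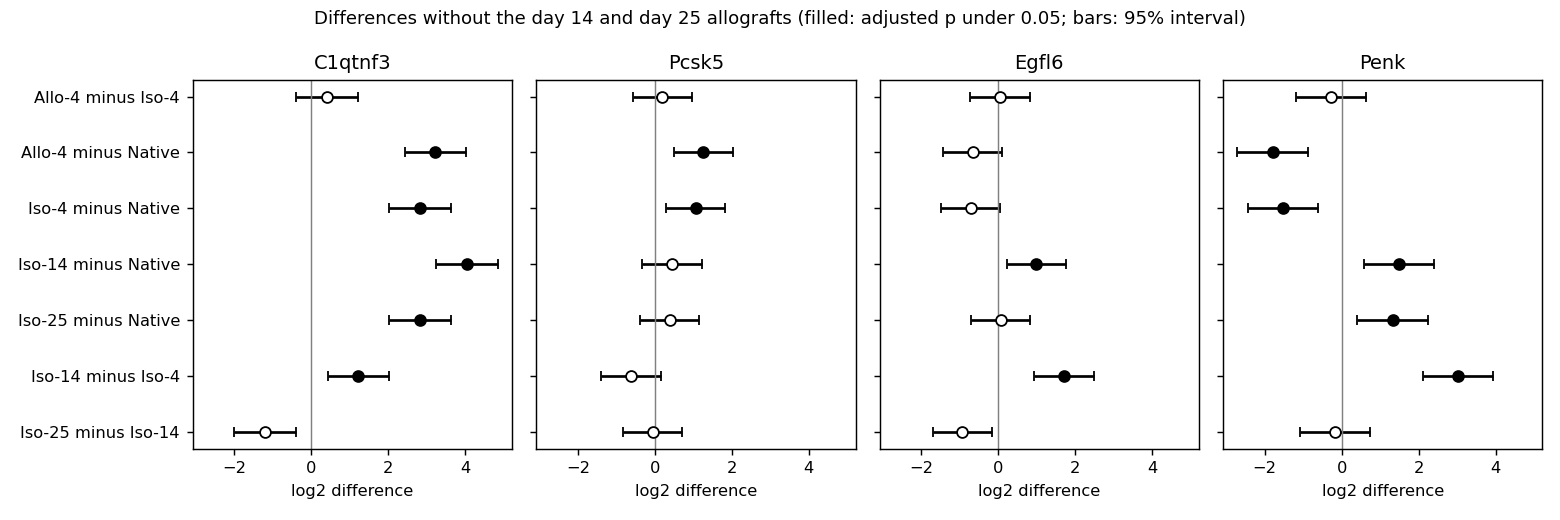
Log2 differences of C1qtnf3, Pcsk5, Egfl6 and Penk in the 7 comparisons that hold no day 14 or day 25 allograft, with 95% intervals from limma; filled points have an adjusted p under 0.05. C1qtnf3 is higher than native trachea in each graft group shown, and Penk is lower at day 4 and higher at days 14 and 25.

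Among all groups, the order of the mean levels differed from gene to gene. For C1qtnf3 Allo-14 and Allo-25 overlapped each other and stood above Iso-14, Allo-4, Iso-25 and Iso-4, which overlapped their neighbours, and native trachea stood below them all. For Egfl6 Allo-25 stood alone above a chain of overlapping groups, from Iso-14 through Allo-14, Iso-25, native trachea and Allo-4 to Iso-4. For Pcsk5 Allo-14 stood alone above the overlapping chain of Allo-25, Allo-4, Iso-4, Iso-14, Iso-25 and native trachea. For Penk Allo-25, Iso-14, Iso-25 and native trachea overlapped in that order and stood above Iso-4, Allo-4 and Allo-14. Over the 35 arrays Pearson's r was 0.71 between C1qtnf3 and Pcsk5, 0.60 between C1qtnf3 and Egfl6, 0.52 between Egfl6 and Penk, 0.16 between Egfl6 and Pcsk5, -0.06 between C1qtnf3 and Penk and -0.56 between Pcsk5 and Penk. These describe arrays that share their groups, so differences between groups make up much of each value.

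Of a list of 17 opioid genes (the other peptide precursors, processing enzymes and receptors, and peptidases), 8 could be tested. In Allo-14 against Iso-14 1 was higher and 2 were lower, where 18.4% of all probe sets were called. The median difference was -0.13, against 0.05 over all probe sets. Cpe, the carboxypeptidase that trims the ends of enkephalins after cleavage, fell by 2.39 (SE 0.39, limma adjusted p = 2.68e-05), with 8.98 in Allo-14 and 11.37 in Iso-14, and was 0.50 from Iso-25 in Allo-25 (adjusted p = 0.486). The Cpe groups did not overlap at day 14. Scg5, a chaperone of the convertase PC2, fell by 1.12 at day 14 (3.28 in Allo-14 and 4.41 in Iso-14, adjusted p = 0.0075) and by 1.19 at day 25 (3.31 in Allo-25 and 4.50 in Iso-25, adjusted p = 0.00534). These allograft levels lie near background, so the sizes are uncertain. The day 25 call of Scg5 was lost with the compared arrays alone (adjusted p = 0.0538). Ace, a peptidase that can degrade enkephalins, rose by 0.71 at day 14 (adjusted p = 0.0277), which no longer passed when any of 5 single arrays was left out (Iso-14 replicates 2, 3 and 5 and Allo-14 replicates 3 and 5), with differences of 0.59 to 0.69. The neuroendocrine convertase Pcsk1 lay near background on all arrays, the enkephalin receptor Oprd1 lay below the filter, and Pcsk2 had no probe set of its own in the annotation used.

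In Allo-25 against Iso-25 none of the 8 was higher and 2 were lower, where 14.9% of all probe sets were called, and the median difference was 0.02 against 0.01 over all. The second of those lower was Ctsl, a lysosomal cysteine protease, which fell by 1.1 (adjusted p = 0.00118). With the compared arrays alone neither was called, so 0 of the list were lower.

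Of 8 other proprotein convertases 4 could be tested. In allografts against isografts limma called none at day 14 or day 25, where 18.4% and 14.9% of all probe sets were called. At an unadjusted p under 0.05 there were 1 and 0 convertases, with medians of -0.02 and -0.01. Without Iso-14 replicate 2, 1 was called lower at day 14. Furin, the ubiquitous convertase, had 7.55 in Allo-14 and 7.39 in Iso-14, a difference of 0.16 (adjusted p = 0.616). Pcsk6, the closest relative of Pcsk5, had a difference of -0.10 at day 14 (adjusted p = 0.845) and -0.03 at day 25 (adjusted p = 0.967). Against native trachea Pcsk6 fell by 0.95 in Allo-4, by 0.97 in Iso-4 and by 0.77 in Iso-14 (adjusted p = 0.00238, 0.00217 and 0.02).

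Among 20 known substrates of furin-like convertases, 14 were tested. At day 14, 2 were higher and 3 lower in allografts than in isografts, where 10% and 8.36% of all probe sets were, with a median of 0.52 against 0.05 over all. The count of higher genes was 6 with array weights, 4 with the compared arrays alone, 1 with median centring, 0 with averaged probe sets and 1 to 4 when 1 array was left out (1 without Iso-14 replicate 3 or 4 or Allo-14 replicate 2 or 5, and 4 without Allo-14 replicate 1). Without Iso-14 replicate 4, 1 was lower. At day 25, 1 was higher and 4 were lower, where 6.38% and 8.53% were, with a median of 0.28 against 0.01. Adam17, a membrane sheddase, rose by 0.90 at day 14 and by 0.80 at day 25 (adjusted p = 0.0032 and 0.0106). When the mean of its probe sets was used, its day 14 difference was 0.51 (adjusted p = 0.214). Its day 25 call, the only higher one of the list, was lost with the compared arrays alone (adjusted p = 0.102) and without Allo-25 replicate 3 (0.67, adjusted p = 0.0508). Bmp4, a growth factor made as a precursor, fell by 1.36 at day 14 (3.52 in Allo-14, near background, and 4.87 in Iso-14) and by 1.27 at day 25 (3.93 in Allo-25 and 5.19 in Iso-25), and Igf1r, the receptor for insulin-like growth factors, fell by 1.45 at day 25 (adjusted p = 0.00222) and differed by -0.77 at day 14 (adjusted p = 0.119, and 0.0382 with the compared arrays alone).

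Of 17 other members of the C1q/TNF family, 5 were tested. In allografts against isografts, 10% of all probe sets were higher at day 14 and 6.38% at day 25. Of the 5, 1 was called, C1qtnf6, a secreted family member, which rose at both days. It was 6.90 in Allo-14 and 5.22 in Iso-14, a rise of 1.68 (SE 0.35, limma adjusted p = 0.00051), and rose by 1.52 in Allo-25 over Iso-25 (adjusted p = 0.00163). The list's medians were 0.47 and 0.49. The count called higher was 2 at each day with averaged probe sets and 0 at each day with the stricter filter (log2 7). Without Iso-14 replicate 4 it was 2 at day 14. Adipoq, which encodes adiponectin, differed by -0.45 at day 14 (adjusted p = 0.825) and 1.19 at day 25 (adjusted p = 0.505). The level of 12 adipocyte markers was 7.84 to 10.56 in Allo-25 and 5.84 to 9.37 in Iso-25, and limma called none of the 11 tested at either day, with 0 and 2 at an unadjusted p under 0.05.

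The list around Egfl6 held 14 genes, the other members of its small family and integrins that bind the RGD sequence, of which 6 were tested. Npnt, encoding the related basement membrane protein nephronectin, was lower at both days. It fell by 2.85 in Allo-14 (4.74 against 7.59 in Iso-14, limma adjusted p = 5.21e-07) and by 2.95 in Allo-25 (4.80 against 7.75 in Iso-25, adjusted p = 2.21e-07), and was the only gene of the list called at day 25 (2 were lower with averaged probe sets). At day 14 Itgb1, the common beta subunit of many integrins, rose by 1.06 (adjusted p = 0.0158), but the direction turned when the mean of its probe sets was used (-0.14, adjusted p = 0.609), and the call was lost without Iso-14 replicate 2 (0.91, adjusted p = 0.0586). Of the list 1 gene was thus higher at day 14, where 10% of all probe sets were. The count was 2 with the stricter filter, array weights, a second quantile normalization, the replicate block or the compared arrays alone. It was also 2 without Iso-14 replicate 1, and 0 without Iso-14 replicate 2 or with averaged probe sets. Itga8, which pairs with Itgb1 to bind nephronectin, did not pass the filter and was not tested. Its values were 3.37 to 6.83 in native trachea and 3.36 to 6.06 in Iso-25. In Allo-14 they were 3.28 to 3.46 and in Allo-25 3.14 to 3.36.

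**Figure D3:**
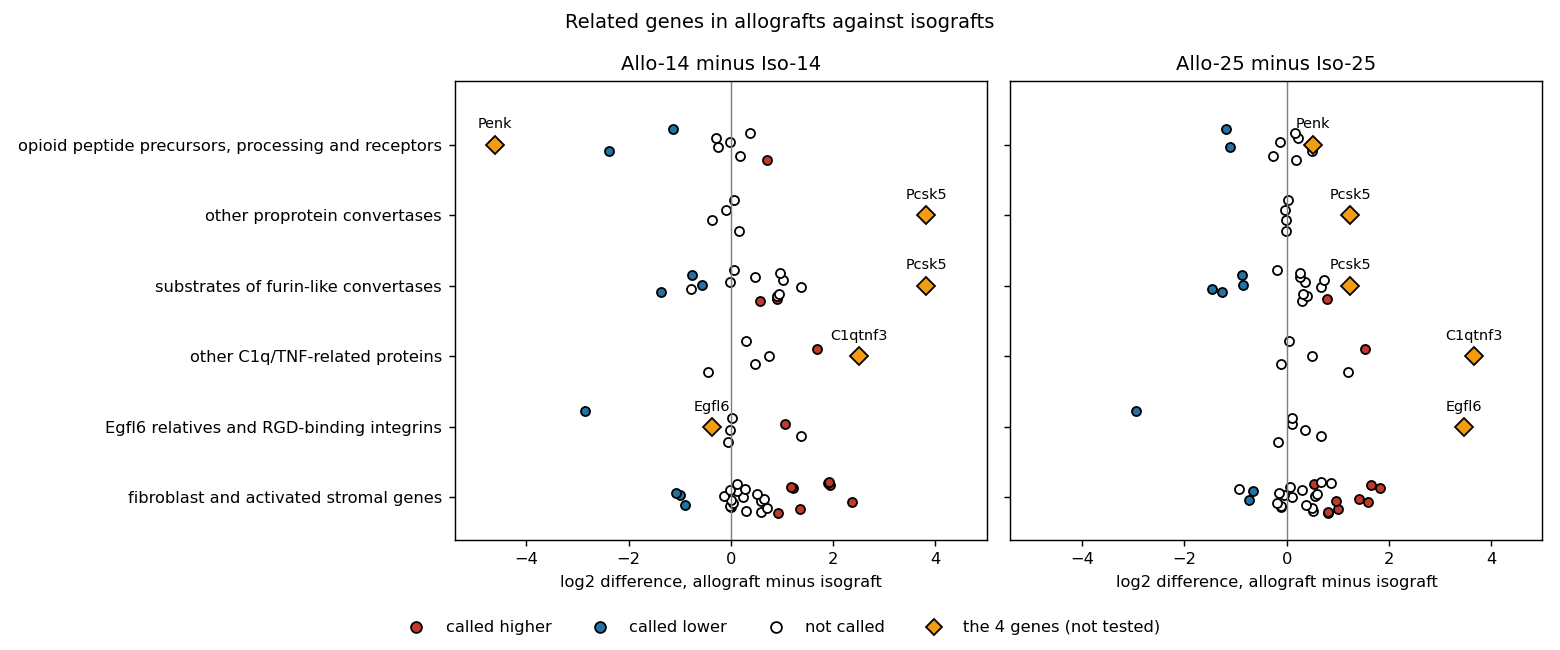
Log2 difference between allografts and isografts at day 14 (left) and day 25 (right) for 5 lists of genes related to the 4 genes and for fibroblast and activated stromal genes; each point is a gene, red called higher and blue called lower by limma, and diamonds are the 4 genes, which were chosen from these values. Pcsk5 lies far to the right of the other convertases at day 14, and Penk far to the left of the opioid list.

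Of 28 fibroblast and activated stromal genes 27 were tested. Of these 8 were higher and 3 lower in Allo-14 than in Iso-14, where 10% and 8.36% of all probe sets were. The median difference was 0.29 against 0.05 over all. Without Iso-14 replicate 1 or 5 or Allo-14 replicate 1, 1 was lower. In Allo-25, 8 were higher and 2 lower than in Iso-25, where 6.38% and 8.53% of all probe sets were. The median was 0.52 against 0.01. With the compared arrays alone 5 were higher and 1 lower. When 1 array was left out 6 to 12 were higher, and 1 was lower without Iso-25 replicate 1 or 3 or Allo-25 replicate 2 or 5. Fbln2, a fibulin of elastic matrix, rose by 2.37 at day 14 (adjusted p = 2.42e-05), and Postn, encoding the matricellular protein periostin, by 1.22 at day 14 and 1.83 at day 25 (adjusted p = 0.0031 and 2.32e-05). Ogn, a small leucine-rich proteoglycan, fell by 1.06 at day 14, and Gas1, a growth arrest gene, by 0.73 at day 25. Col1a1, the chief fibrillar collagen chain, rose by 0.93 at day 14 (adjusted p = 0.0352) and differed by 0.81 at day 25 (adjusted p = 0.0841). Its day 14 call was lost with no filter (adjusted p = 0.0535), with the mean of its probe sets (0.12) and when any of 7 arrays was left out (Iso-14 replicates 2, 3 and 4 and Allo-14 replicates 1, 2, 4 and 5, differences of 0.73 to 0.94). At day 25 it was called without Iso-25 replicate 5 (1.08, adjusted p = 0.0117) and with array weights (adjusted p = 0.00507). Pdgfra, a general fibroblast receptor, differed by 0.12 at day 14 (adjusted p = 0.761) and fell by 0.66 at day 25 (adjusted p = 0.0218). That call was lost with the compared arrays alone (adjusted p = 0.076), with the mean of its probe sets (-0.11) and without any 1 of 4 arrays (Iso-25 replicates 1 and 3 and Allo-25 replicates 2 and 5, -0.62 to -0.54). In Iso-14 against native trachea 17 of the 27 were higher and none lower, where 12.1% of all probe sets were higher.

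Cartilage markers moved in some of the comparisons in which Penk did. Of 15 chondrocyte markers, 9 were lower and none higher in Allo-14 than in Iso-14, where 8.36% and 10% of all probe sets were. Their median difference was -2.17, and their mean level was 5.42 to 8.04 in Allo-14 and 8.0 to 9.49 in Iso-14. In Allo-25 against Iso-25, 1 was higher and none lower, where 6.38% and 8.53% of all probe sets were, with levels of 8.82 to 9.99 and 7.36 to 9.10. In Iso-4 against native trachea 7 were lower, where 23.2% of all probe sets were, and in Allo-4 against native 5 were, where 22.6% were. In Iso-14 against Iso-4 4 were higher, where 9.18% of all probe sets were. In Iso-14 against native trachea, where Penk rose by 1.5, 1 chondrocyte marker was higher and 1 lower, with a median of -0.26. In Iso-25 against native trachea, where Penk rose by 1.32, none was higher and 1 was lower, with a median of -0.35. Of all probe sets, 12.1% were higher in Iso-14 and 8.98% in Iso-25 than in native trachea. Col2a1, the defining collagen of cartilage, had a mean of 9.37 in Allo-14 and 11.55 in Iso-14, and of 12.08 in Allo-25 and 11.08 in Iso-25. The part of cartilage in the Penk values was not tested.

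C1qtnf3, Pcsk5 and Egfl6 stood high in groups in which other markers moved as well. The macrophage list had levels of 8.72 to 9.33 in Allo-14 and 7.84 to 8.02 in Iso-14, and of 8.54 to 9.57 in Allo-25 and 7.16 to 8.50 in Iso-25. T cell markers had 5.32 to 6.20 in Allo-14 and 4.37 to 4.63 in Iso-14, and 5.65 to 6.14 in Allo-25 and 4.41 to 5.46 in Iso-25. Of the 14 airway epithelial markers, 13 were lower in Allo-14 than in Iso-14 and 14 were lower in Allo-25 than in Iso-25. Of all probe sets, 8.36% and 8.53% were lower in these comparisons. Between Allo-14 and Allo-25 the macrophage and T cell levels overlapped, and the epithelial levels did not. Their part in the results was not tested.

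**Figure D4:**
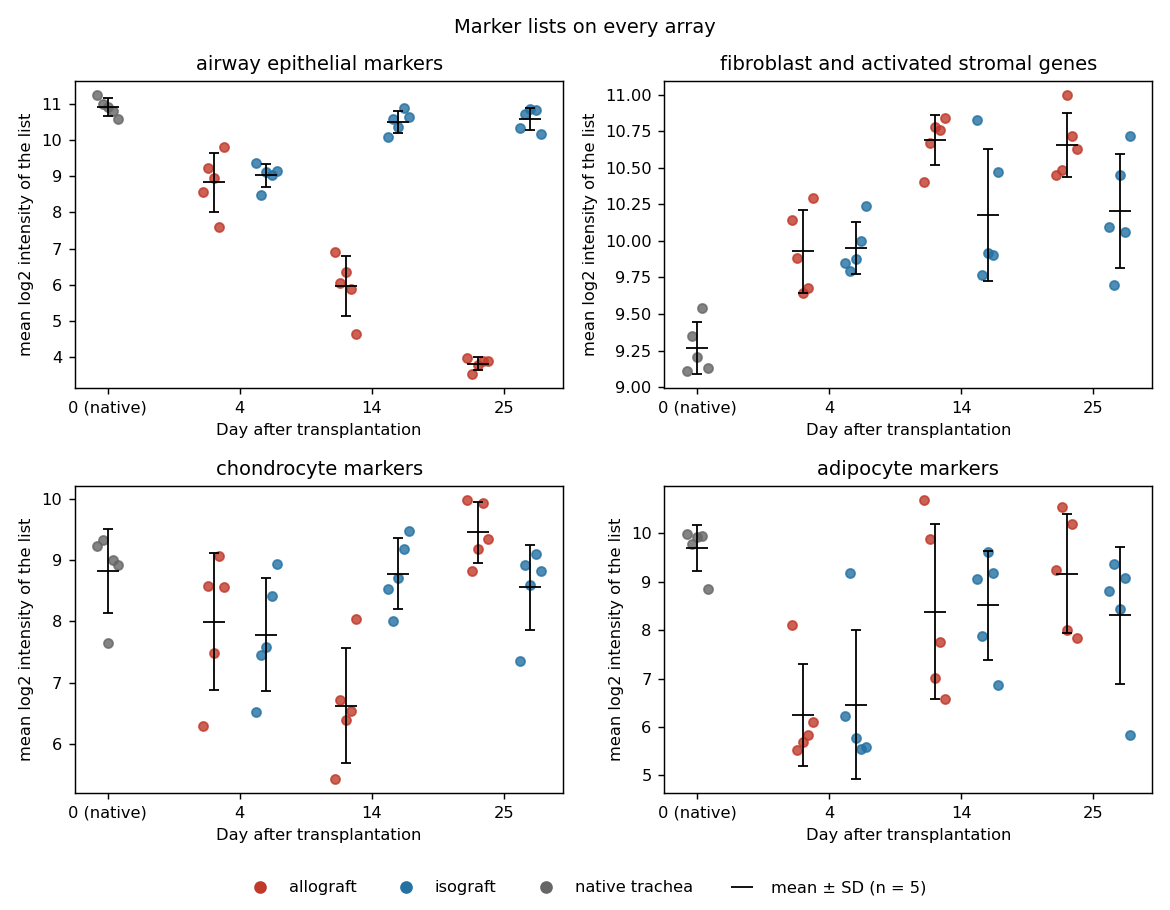
Mean log2 intensity of 4 marker lists on each of the 35 arrays by day, with native trachea at day 0; points are arrays (allografts left of isografts), and bars are the mean ± SD of 5 arrays. The airway epithelial level is lowest in day 25 allografts, and the chondrocyte level is low in day 14 allografts and high in day 25 allografts.

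The 35 arrays include the late allografts by which the members were chosen. The genes most alike to each member over these arrays were sought among 8312 others by Pearson's r, as a description. For C1qtnf3 they were Postn (r = 0.95), Epha3, an ephrin receptor (0.92), and Myo7a, an unconventional myosin (0.92). Postn had a mean of 13.10 in Allo-14 and 11.88 in Iso-14, of 13.28 in Allo-25 and 11.46 in Iso-25, and of 10.33 in native trachea. Like C1qtnf3, Postn thus had its lowest mean in native trachea. For Egfl6 they were Capn6, a calpain family member (0.87), Scube2, a secreted protein with EGF-like repeats (0.87), and Ccn3, a matricellular protein (0.84), whose mean was 11.48 in Allo-25 and 7.98 in Iso-25.

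For Pcsk5 the most alike were Arsi, a sulfatase (0.91), Ubd, a ubiquitin-like protein induced by interferon-gamma (0.87), and Bmp1, a protease that cuts procollagens (0.85). Ubd had a mean of 8.47 in Allo-14 and 3.67 in Iso-14, and of 5.03 in Allo-25 and 3.60 in Iso-25, so its peak was also at day 14. By ranks its correlation with Pcsk5 was lower (Spearman's rho 0.69). For Penk they were Omd (0.90), a proteoglycan of mineralised tissue, Chad (0.89) and Mia (0.88), both known from cartilage. Chad and Mia are also among the 15 chondrocyte markers. Chad had a mean of 7.50 in Allo-14 and 11.33 in Iso-14, of 11.56 in Allo-25 and 11.28 in Iso-25, and of 12.13 in native trachea, where Penk was lower than in Iso-14.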

How the data were processed

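Total RNA of 35 tracheal samples was extracted with TRIzol and a column cleanup and hybridised as biotinylated cRNA, per the labels' protocols. The deposited values are log2 intensities that the authors made with GCRMA 1.1.3, per the submitters' processing notes. They ran from 0.317 to 15.53, and nothing further was normalized. The array medians were 5.07 to 5.30. The number of arrays limits the precision.

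The table held 22690 probe sets, 64 of them controls. Of the other 22626, 20380 had 1 gene in the annotation used, 691 several and 1555 none. Probe sets that reached a log2 intensity of 5 on 5 or more arrays were tested, 13678 in all, and 12521 of these had 1 gene (8313 genes). Of the arrays at or above 5, C1qtnf3 had 31, 10 of them late allografts, Egfl6 15 and 8, Pcsk5 18 and 10, and Penk 33 and 8. A gene of a list was represented by its kept probe set with the highest mean.

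One model of the 7 group means was fitted over the 35 arrays by limma's lmFit and eBayes (version 3.58.1, R 4.3.3, 28 residual degrees of freedom), and p-values were adjusted by Benjamini-Hochberg over all probe sets kept. A call is an adjusted p under 0.05. The fit was tested on simulated data. The model did not pair samples by replicate number, and what the numbers stand for is not given in the sources used here.

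The 4 genes and the lists were chosen with earlier results of these data known. Named genes are the 4, the 3 most alike to each, the called member of each of the 6 lists related to the genes with the largest rise and the largest fall at days 14 and 25, and 12 fixed genes. Scg5 and Bmp4 also carry their other day. Ctsl was named after its value was seen. Marker lists were for chondrocytes, airway epithelium, smooth muscle, skin, adipocytes, skeletal muscle, macrophages, T cells, Schwann cells and endothelium. In Allo-14 against Iso-14 and Allo-25 against Iso-25, the smooth muscle list had 3 and 6 of 8 lower, the skeletal muscle list 7 and 0 of 14 lower, the Schwann list 1 and 2 of 5 lower, and the endothelial list 0 of 10 called by limma at either day, with 0 at an unadjusted p under 0.05. Of all probe sets, 8.36% and 8.53% were lower in these comparisons.

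The settings varied were the filter (none, or log2 7), the weighting of arrays, the variance model (intensity trend, robust), the normalization (quantile again, or median centring), a replicate block, fits to only the arrays compared, averaging of each gene's probe sets, leaving out the 2 arrays that stood apart, and leaving out each array in turn.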

Additional observations from a re-analysis of the deposited data

Results flagged for a closer look

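Of 49 groups of 5 arrays checked, 7 for each of the 7 probe sets of the 4 genes, 4 held a value far from the other arrays of its group, where chance alone gives about 1 in 20. C1qtnf3 was 8.88 in Iso-25 replicate 5, against 6.48 to 6.96 in the other 4 arrays, and that array also stood apart over all probe sets. Pcsk5 was 6.91 in Iso-4 replicate 5, against 4.76 to 5.23, and this array carries the call of Iso-4 over native trachea. By its probe set 1452475_at, which lies near background, Pcsk5 was 3.76 in Iso-25 replicate 1, against 2.81 to 3.05. Penk was 8.94 in Allo-25 replicate 5, against 10.58 to 11.06.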

How the results depend on the processing

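The 7 tested differences of the 4 genes kept their direction and side of the threshold under median centring, array weights, a second quantile normalization, the replicate block and a robust variance with an intensity trend. With no filter, Egfl6 in Iso-14 against native trachea was 1.00 (adjusted p = 0.0505) and Penk in Iso-25 against native 1.32 (adjusted p = 0.057), both no longer called, and 10007 and 6154 probe sets were called in Iso-4 and Iso-14 against native. With the stricter filter Egfl6 was not kept, and 4033, 3875 and 2530 probe sets were called in Allo-4, Iso-4 and Iso-14 against native. Array weights called 3549 in Iso-25 against native. With the compared arrays alone, 51 probe sets were called in Allo-4 against Iso-4, and Penk in Iso-25 against native was 1.32 (adjusted p = 0.055). Without the 2 arrays that stood apart this Penk difference was 1.11 (adjusted p = 0.114), and 11 probe sets were called in Iso-25 against Iso-14. With probe sets averaged per gene Pcsk5 fell below the filter and gave no value, and Itgb1 turned to -0.14 at day 14 and -0.56 at day 25 (adjusted p = 0.00986). The causes were not tested, except that fewer or more probe sets were tested under the other filters.

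Leaving out 1 array at a time, C1qtnf3 in Iso-14 against Iso-4 ranged from 0.91 to 1.44, Egfl6 in Iso-14 against native from 0.81 to 1.25, Pcsk5 in Iso-4 against native from 0.68 to 1.22, and Penk in Iso-25 against native from 1.13 to 1.64. The probe sets called ranged from 0 to 8 in Iso-25 against Iso-14 and from 1425 to 2753 in Iso-25 against native.

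Arrays with the same replicate number had a median correlation of deviations of 0.04 (105 pairs), against 0.01 for different numbers (420 pairs). The ranges overlapped, at -0.42 to 0.47 and -0.53 to 0.67. These medians cannot tell whether arrays of the same number share a batch. Both arrays that stood apart had replicate number 5. With the replicate block, C1qtnf3 in Iso-14 against Iso-4 had an adjusted p of 0.0104 and Egfl6 in Iso-14 against native of 0.0383, and no call of the 4 genes changed.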
